A study of Homo sapiens with 6 samples.

Results

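The 4 ERBB receptor genes and 6 genes for ligands of the EGF family were followed in Huh7, an established line of human hepatocellular carcinoma cells, after forced expression of LHX2, a LIM-homeodomain transcription factor. The members were taken by symbol: EGFR, ERBB2, ERBB3, ERBB4, AREG, EREG, HBEGF, TGFA, BTC and EGF, 10 genes of 28265 in the table, and each had a row. One group of 3 libraries came from cells transduced with a lentivirus that carried LHX2, and the other group of 3 from cells given the control vector, both sampled at 48 h in serum-containing medium. The labels name neither the promoter of the vector nor separate cultures for the replicates, so that the spread between libraries, and every p-value built on it, may be technical. The series title directs the comparison to MAPK/ERK and Wnt/beta-catenin signalling, and the ERBB receptors stand at the head of MAPK/ERK signalling.

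EGFR, ERBB2, ERBB3 and ERBB4 are receptor tyrosine kinases that pair at the cell surface. EGF, TGFA and AREG bind EGFR, and HBEGF, BTC and EREG bind both EGFR and ERBB4. The neuregulins bind ERBB4, and some of them also ERBB3. ERBB2 has no known ligand of its own and acts as a partner of the others. The ligands are made as membrane precursors and cut free by metalloproteases, and the activated pairs recruit adaptors that start the RAS-ERK and PI3K cascades. In liver, EGFR ligands are known for their part in regeneration after tissue loss.

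The labels were checked first. LHX2 had 2535, 2427 and 3126 counts in the LHX2 libraries against 1, 2 and 1 in the control libraries. Deposited counts summed to 30029313 to 35194438 per LHX2 library and to 32625405 to 39653681 per control library. Hepatocyte markers were abundant in every library (ALB, AFP, APOA1, APOA2, APOB, TTR, SERPINA1 and FGB, 42650 to 47520 CPM in sum with LHX2 and 46870 to 48120 CPM with control vector, where CPM is counts per 10 to the sixth of normalised library size). Of these 8 markers, 0 were called higher and 3 lower in edgeR: APOA2 (1.279-fold, adjusted p = 3.01e-05), SERPINA1 (1.231-fold, 1.24e-04) and TTR (1.128-fold, 3.87e-03). The share called was 37.5%, against 32.5% of all genes tested, 15.8% of them lower. Of genes that averaged 30 CPM or more, 44.8% were called in either direction and 26.2% lower. Among markers of other cells, KRT7, CDH5, KDR and CD3E had 0 counts in all libraries and PTPRC, DCN and VWF had at most 3 in any. CD68, which is a lysosomal protein of macrophages and other cells, rose 1.983-fold (edgeR adjusted p = 9.11e-07), and the leukocyte list of PTPRC, CD68 and CD3E summed to 15.95 to 17.17 CPM with LHX2 and 7.754 to 9.391 CPM with control vector. KRT19 and EPCAM, markers of bile duct cells, rose 1.441-fold and 1.302-fold (edgeR adjusted p = 1.52e-04 and 7.95e-04). SOX9, which gave most of the reads of that list, differed by -0.04 on the log2 scale (edgeR adjusted p = 0.445) and overlapped between the groups, and the list summed to 181.9 to 192.4 CPM with LHX2 and 172.5 to 178.1 CPM with control vector. PDGFRA rose 1.187-fold (edgeR adjusted p = 0.0148) and gave nearly all of the fibroblast list, which summed to 20.67 to 21.75 CPM with LHX2 and 16.75 to 19.2 CPM with control vector. PECAM1 fell 1.327-fold (edgeR adjusted p = 0.0244) and gave nearly all of the endothelial list, which summed to 2.774 to 3.215 CPM with LHX2 and 3.749 to 4.28 CPM with control vector. The part of these levels in the results below was not tested. In RNA from bulk cultures, fewer cells that express a gene and less RNA per cell cannot be told apart.

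With LHX2, the transcripts of 3 receptors rose and that of 1 ligand fell, all by less than 1.5-fold. ERBB2 rose 1.34-fold, EGFR 1.109-fold and ERBB3 1.081-fold, and EGF fell 1.125-fold, while AREG, EREG, HBEGF and BTC did not pass the test and TGFA (0 counts) and ERBB4 did not pass the filter on low counts. The test was edgeR's quasi-likelihood F-test on the counts, with p adjusted by Benjamini-Hochberg over 14533 genes and called under 0.05. Over that whole set 16.6% of genes were called higher and 15.8% lower, 32.5% in either direction. Among the 8 members tested, 3 were higher, 1 was lower and 4 did not pass. The calls of ERBB3 and EGF lay near the threshold, and those of EGFR, ERBB3 and EGF were lost under several alternatives. Under a correction for transcript length and GC content, the log2 fold change of EGFR moved from 0.15 to 0.020 and that of ERBB3 from 0.11 to 0.046. ERBB2 was at 0.34 and EGF at -0.19 under that correction, both still called. The rise of ERBB2 was kept under all 17 alternatives (log2 fold change 0.33 to 0.47).

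**Figure D1:**
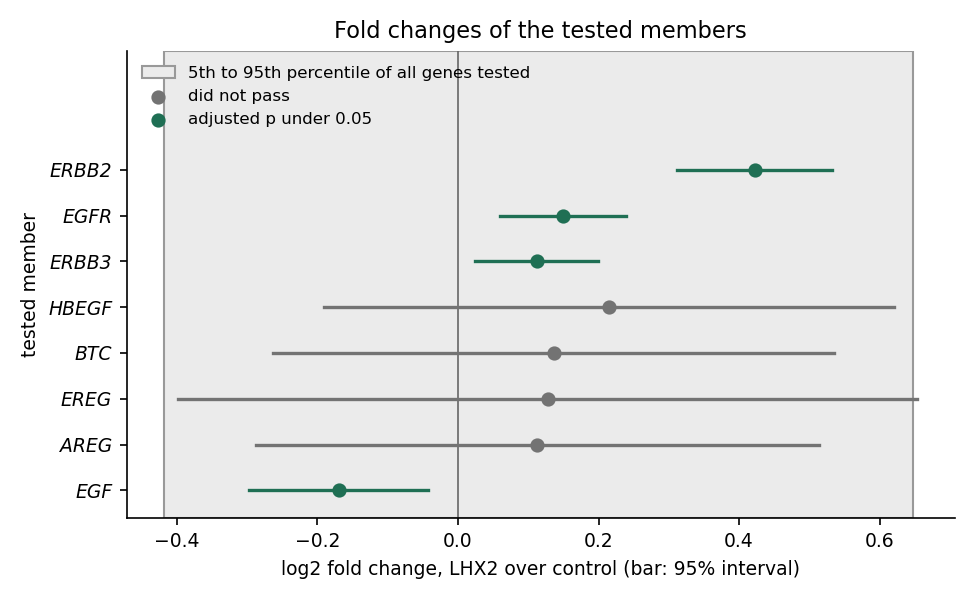
Log2 fold changes of the 8 tested members, LHX2 over control vector, with 95% intervals from the edgeR fit (3 libraries per group). Green points passed at an adjusted p under 0.05 and grey points did not, and the shaded band runs from the 5th to the 95th percentile of all genes tested, -0.42 to 0.65. ERBB2 stands at 0.42, EGFR at 0.15, ERBB3 at 0.11 and EGF at -0.17.

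The start regions of the called members are shown because these genes are the ones that moved. RefSeq windows on GRCh38.p14, from 250 bases before to 50 after a gene's start, were held for 9 of the 10 members, all but ERBB3. Capitals mark matches, on either strand, to 7 short motifs that were chosen after the sequences had been read: TAATTA and its relative TAATTG, core motifs of LIM-homeodomain factors, TGAGTCA of AP-1, CCGGAAGT of ETS factors, the GC box GGGCGG, the CCAAT box, and the TATA box TATAAA.
ERBB2, chr17:39687844-39688143, plus strand: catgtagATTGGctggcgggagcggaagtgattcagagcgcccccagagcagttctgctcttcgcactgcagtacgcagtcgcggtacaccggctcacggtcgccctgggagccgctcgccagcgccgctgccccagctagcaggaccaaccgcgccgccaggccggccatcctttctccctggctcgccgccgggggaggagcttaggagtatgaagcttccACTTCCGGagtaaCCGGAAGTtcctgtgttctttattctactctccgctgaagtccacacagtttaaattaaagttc
EGFR, chr7:55018767-55019066, plus strand: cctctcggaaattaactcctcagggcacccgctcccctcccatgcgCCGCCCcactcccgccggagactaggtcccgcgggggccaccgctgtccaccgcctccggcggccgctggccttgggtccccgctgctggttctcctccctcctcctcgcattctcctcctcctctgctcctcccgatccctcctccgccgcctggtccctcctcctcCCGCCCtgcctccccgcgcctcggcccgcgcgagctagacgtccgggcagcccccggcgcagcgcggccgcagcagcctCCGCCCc
EGF, chr4:109912633-109912932, plus strand: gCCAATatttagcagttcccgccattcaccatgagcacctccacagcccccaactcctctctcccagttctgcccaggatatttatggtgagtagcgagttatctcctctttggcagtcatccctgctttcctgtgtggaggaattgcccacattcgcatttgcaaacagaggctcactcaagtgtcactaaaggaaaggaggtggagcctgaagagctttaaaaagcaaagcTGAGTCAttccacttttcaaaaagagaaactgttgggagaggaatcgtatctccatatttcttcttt

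The searches covered both strands and took overlapping matches. In the ERBB2 window the ETS motif occurred on the minus strand at -27 and on the plus strand at -14 from the start, counted to the first printed base of the match. The ETS motif is found in 4.44% of 27305 RefSeq promoter windows of the same length. A CCAAT match stood at -243. The EGFR window held the GC box at -204, -36 and 44, as 44.6% of windows hold at least 1, and none of the other motifs, while a second EGFR window held TGAGTCA and the TATA box. The EGF window held TGAGTCA at -17, a motif in 4.92% of windows, and CCAAT at -249, in 35.7%. TAATTA, present in 4.98% of windows, was found in the windows of 0 of the 9 members, and TAATTG, present in 7.58%, in the EREG window alone, where it overlapped a CCAAT match. ERBB2 has 7 annotated starts in the GENCODE basic set and EGFR 6, and gene counts do not tell which were used. The ERBB2 window lies at the outermost RefSeq position of the gene, 39688094. No window at a start further into ERBB2 was held or searched. The matches and the absent motifs given for ERBB2 therefore describe this start alone and may not hold for the start that Huh7 cells use.

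ERBB2 (gene 2064) lies on chromosome 17 from position 39688094 to 39728658 of GRCh38. Its level was 58.0, 52.59 and 57.59 CPM in LHX2 replicates 1 to 3 and 40.58, 43.23 and 41.69 CPM in control replicates 1 to 3. All LHX2 libraries were above all control libraries, and the gap between the groups was wider than the range within either. The log2 fold change was 0.42 ± 0.05 (SE, n = 3 per group; edgeR adjusted p = 1.87e-05), with a 95% interval of 0.31 to 0.53. Of all genes tested, 15.1% changed by more than this in either direction. These values rest on 5422 reads over the LHX2 libraries and 4370 over the control libraries. Non-overlap as such was common, with 44.9% of the genes tested free of overlap between the groups.

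EGFR (gene 1956, chromosome 7, 55019017 to 55211628) was the member with the most reads. Its level was 310.6, 335.5 and 309.5 CPM with LHX2 and 285.5, 280.9 and 294.9 CPM with control vector. The groups did not overlap, but the lowest LHX2 library and the highest control library were close, and LHX2 replicate 2 stood above the other LHX2 libraries. The log2 fold change was 0.15 ± 0.04 (SE, n = 3 per group; edgeR adjusted p = 0.0129, 95% interval 0.06 to 0.24). The call was lost without LHX2 replicate 2 (0.11, adjusted p = 0.0589), control replicate 1 (0.15, 0.0518) or control replicate 2 (0.13, 0.0839). It was also lost once fold changes were corrected for the length and GC content of the longest transcript (0.020, edgeR adjusted p = 0.692).

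ERBB3 (gene 2065, chromosome 12, 56080108 to 56103505) encodes the member whose kinase domain has little activity and which signals through its partners. It stood at 158.6, 159.1 and 169.0 CPM with LHX2, against 145.9, 149.9 and 154.8 CPM with control vector. The groups were separate by a small margin. The log2 fold change was 0.11 ± 0.04 (SE, n = 3 per group; edgeR adjusted p = 0.0493), at the edge of the threshold. It was lost without any 1 library but control replicate 3 (0.08 to 0.13 over the 6 fits, adjusted p 0.0418 to 0.188) and with the correction for length and GC content (0.046, edgeR adjusted p = 0.372).

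The share of genes called was higher among abundant transcripts, to which the 3 receptors belong. Of 6122 genes that averaged 30 CPM or more, 18.6% were called higher and 44.8% called in either direction. The rise of EGFR was exceeded in size by 51.3% of all genes tested and that of ERBB3 by 61.4%.

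ERBB4 (gene 2066, chromosome 2, 211375717 to 212538802), the neuregulin receptor of heart and brain, was close to absent. It had 5, 5 and 11 counts in the LHX2 libraries and 4, 4 and 3 in the control libraries and did not enter the test. All LHX2 counts were above all control counts. The ratio of the summed counts, 21 with LHX2 and 11 with control vector, was 2.103 after scaling by library totals. Its exact binomial 95% interval of 0.97 to 4.83, which covers counting error only, holds 1.

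Per length, the receptors kept their order in both groups. On the scale of CPM per kilobase of exon (RPKM, with the union of annotated exons as the length), EGFR had 28.1 ± 1.3 with LHX2 and 25.3 ± 0.63 with control vector (SD, n = 3 each). ERBB3 had 21.8 ± 0.79 and ERBB2 9.90 ± 0.53 RPKM with LHX2, against 20.2 ± 0.60 and 7.39 ± 0.24 RPKM with control vector. EGFR thus made up 47.0% of the summed receptor level with LHX2 and 47.9% with control vector, and ERBB3 made up 36.5% with LHX2 and 38.2% with control vector. ERBB2 made up 17.4%, 15.4% and 16.9% in the LHX2 libraries and 13.8%, 14.5% and 13.6% in the control libraries, with no overlap.

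Whether the receptors moved apart was examined with ratios within each library, which do not depend on library scaling. The ratio of ERBB2 to EGFR was 0.374, 0.314 and 0.372 with LHX2 and 0.284, 0.308 and 0.283 with control vector, a mean difference of 0.27 on the log2 scale. The ratio of ERBB3 to ERBB2 was 2.08, 2.31 and 2.24 with LHX2 and 2.74, 2.64 and 2.83 with control vector, a difference of -0.31. Neither ratio overlapped between the groups, and each gave p = 0.1 in a two-sided exact permutation test, the smallest value that 3 against 3 libraries allow (adjusted over 3 ratios, 0.15). ERBB3 to EGFR was 0.779, 0.723 and 0.833 with LHX2 and 0.779, 0.814 and 0.801 with control vector, with overlap and an exact p of 0.6. Because 0.1 is the floor, this test could not pass 0.05 for any ratio.

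**Figure D2:**
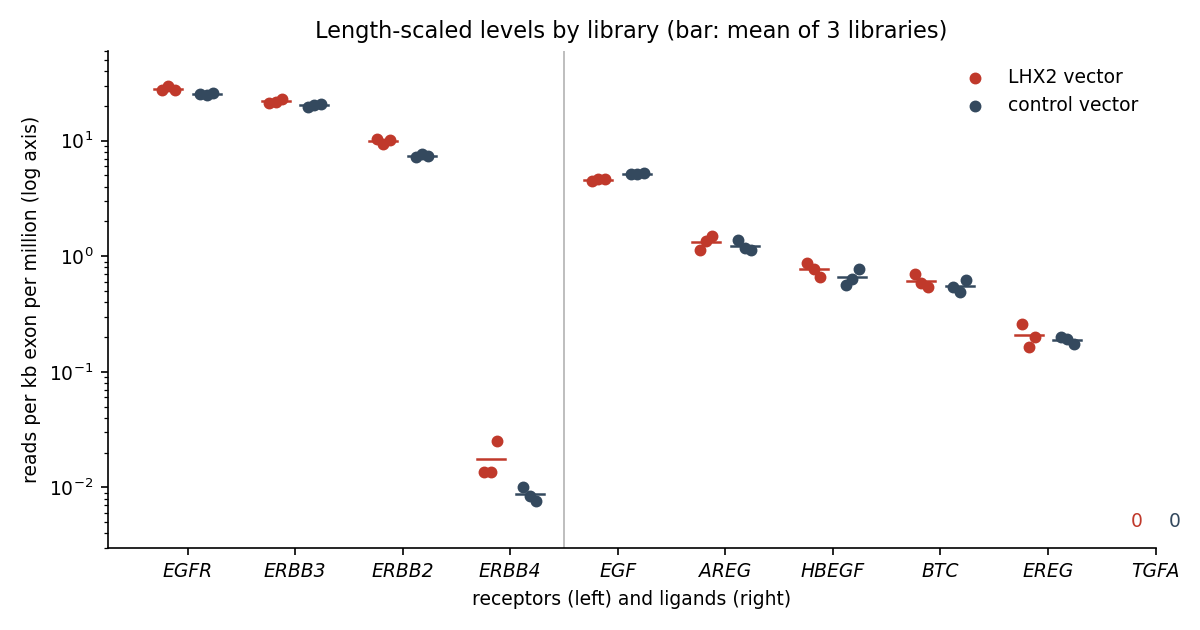
Length-scaled level of each member in every library, on a log axis, in RPKM, for LHX2 libraries (red, left of each pair) and control libraries (blue), with a bar at the mean of 3. EGFR, ERBB3 and ERBB2 lie between 7.17 and 29.6, EGF between 4.49 and 5.22, the other detected ligands at or below 1.499, ERBB4 at or below 0.0251, and TGFA at 0.

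EGF (gene 1950, chromosome 4, 109912883 to 110013766), which encodes a large multi-domain precursor of the growth factor, was the ligand with the highest level. It had 21.96, 22.64 and 22.61 CPM with LHX2, against 24.97, 25.15 and 25.49 CPM with control vector. All LHX2 libraries were below all control libraries, and the libraries of each group lay close together. The log2 fold change was -0.17 ± 0.06 (SE, n = 3 per group; edgeR adjusted p = 0.0406, 95% interval -0.30 to -0.04). The call was lost when any 1 library was left out (-0.18 to -0.16, adjusted p 0.0604 to 0.114) and with DESeq2 (-0.17, adjusted p = 0.0619), while the direction was kept in all 17 alternatives.

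The other EGFR ligands had about 1 to 2 CPM and did not pass the edgeR test. HBEGF, a heparin-binding ligand (gene 1839, chromosome 5, 140332843 to 140346603), had 63, 56 and 57 counts with LHX2 and 44, 60 and 60 with control vector. AREG, amphiregulin, had 42, 51 and 67 counts with LHX2 and 56, 57 and 46 with control vector. Betacellulin, BTC, had 59, 50 and 55 counts with LHX2 and 50, 54 and 57 with control vector. EREG, epiregulin, had 36, 23 and 33 counts with LHX2 and 30, 35 and 26 with control vector. The groups overlapped for each of these 4 genes once scaled to library size.

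Their fold changes were estimated with wide intervals. The log2 fold change was 0.22 for HBEGF (95% interval -0.19 to 0.62, edgeR adjusted p = 0.422) and 0.14 for BTC (-0.26 to 0.54, 0.621). It was 0.13 for EREG (-0.40 to 0.65, 0.732) and 0.11 for AREG (-0.29 to 0.51, 0.686). In fold terms these intervals reach up to 1.54 for HBEGF, 1.45 for BTC, 1.57 for EREG and 1.43 for AREG, so at this depth they hold no change as well as a rise of the size fitted for ERBB2. The sign of EREG turned to -0.060 without LHX2 replicate 1.

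TGFA, transforming growth factor alpha (gene 7039, chromosome 2, 70447284 to 70553826), was listed at 0 in all 6 libraries. A count of 0 allows up to 3 counts, or 0.0832 to 0.0998 CPM in the LHX2 libraries and 0.0765 to 0.0924 CPM in the control libraries. The annotation and settings of the counting were not at hand, so their part in this 0 was not tested, and the floor covers counting error alone. It was not alone in this, since 3184 of 19110 protein-coding genes in the table had 0 counts in all libraries.

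Per length, EGF stood at 4.58 ± 0.078 RPKM with LHX2 and 5.16 ± 0.054 with control vector (SD, n = 3 each) and made up 61.2% of the summed ligand level with LHX2 and 66.2% with control vector. With LHX2, AREG followed at 1.33 ± 0.19 RPKM, HBEGF at 0.771 ± 0.11, BTC at 0.607 ± 0.081 and EREG at 0.207 ± 0.049. With control vector, AREG was at 1.23 ± 0.13 RPKM, HBEGF at 0.661 ± 0.11, BTC at 0.553 ± 0.067 and EREG at 0.189 ± 0.014. The ranges of HBEGF and BTC overlapped in both groups, although HBEGF was the higher in each of the 6 libraries, while the ranges of the other neighbours in this order were separate. The same order held with the longest transcript as the length. AREG, EREG and BTC lie within a single stretch of chromosome 4 (74445136 to 74455005, 74365145 to 74388749 and 74744759 to 74794523), and EGF lies elsewhere on that chromosome.

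The remaining ligands of the family showed no call in 3 tested genes of 5 (0 by edgeR, DESeq2 or limma-voom, and 0 at an unadjusted p under 0.05). NRG4, which binds ERBB4, had the most reads, 229, 274 and 280 counts with LHX2 and 276, 343 and 325 with control vector (log2 fold change -0.16 ± 0.10, SE, edgeR adjusted p = 0.246). NRG3 differed by -0.21 ± 0.17 (0.394) and NRG1 by 0.22 ± 0.27 (0.582). NRG2 was at 0 counts in all libraries and EPGN, epigen, had 2 to 11 counts per library.

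Genes beside the called members were examined next. ERBB2 shares its neighbourhood with PGAP3, whose near edge lies 37 bases from the first ERBB2 start, and with MIEN1, whose body overlaps the end of ERBB2. That edge of PGAP3, at 39688057, falls inside the ERBB2 window printed above. Which gene the motif matches in that window belong to was not tested. Of 8 genes tested within 200 kb of ERBB2, 0 were called by edgeR in either direction, against 32.5% of all genes tested, and 0 by DESeq2 or limma-voom, while 3 of them (CDK12, GRB7 and GSDMB) were lower at an unadjusted p under 0.05. Log2 fold changes were 0.16 ± 0.09 for PGAP3, 0.03 ± 0.08 for STARD3 (which turned to -0.030 without LHX2 replicate 3 and -0.039 without control replicate 3), -0.14 ± 0.08 for MIEN1 and -0.23 ± 0.09 for GRB7, an adaptor that binds ERBB2 (SE). Because MIEN1 overlaps ERBB2, reads in the shared stretch are uncertain. Further out they were -0.10 ± 0.04 for CDK12, -0.28 ± 0.11 for GSDMB, -0.07 ± 0.07 for ORMDL3 (0.0080 without LHX2 replicate 3) and 0.47 ± 0.30 for the low-count gene IKZF3. Adjusted p-values of the 8 ran from 0.0639 to 0.788. Some neighbours were called lower in other fits: CDK12 (-0.18) and GRB7 (-0.26) with the correction for length and GC content, GSDMB with that correction (-0.30), no filter on low counts (-0.28) or without LHX2 replicate 2 (-0.37) or control replicate 2 (-0.36), MIEN1 without LHX2 replicate 3 (-0.23) and ORMDL3 without LHX2 replicate 1 (-0.165). None was called higher in any fit run.

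**Figure D3:**
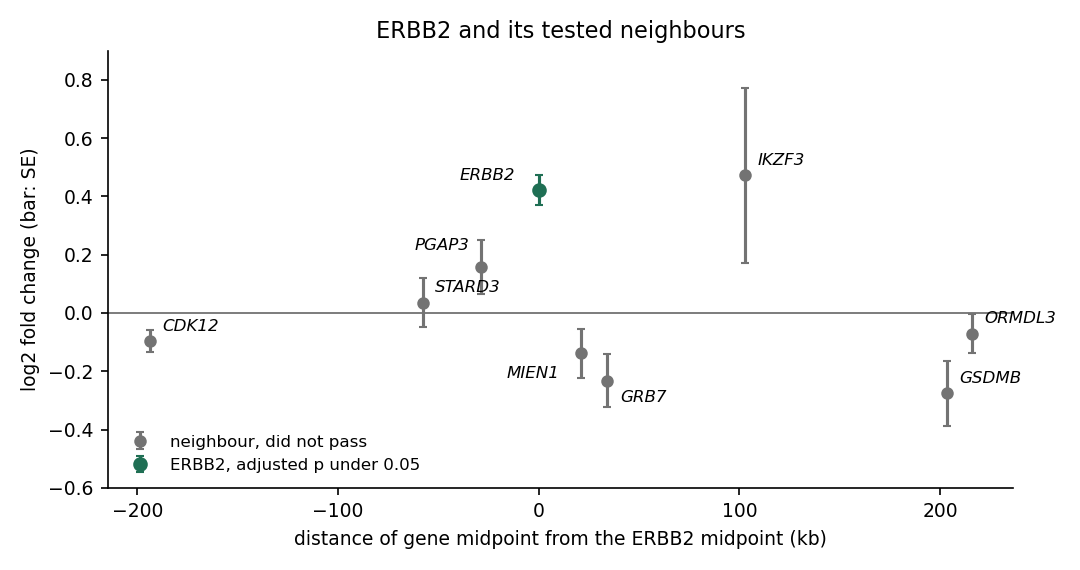
Log2 fold change (LHX2 over control vector, bars are SE, 3 libraries per group) of ERBB2 and of the 8 tested genes within 200 kb, against the distance of gene midpoints in kb. ERBB2 is at 0.42 and passed, and its neighbours lie between -0.28 and 0.47 and did not.

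Within the body of EGFR, on the opposite strand, lies the antisense RNA gene EGFR-AS1. It had 10.81, 9.875 and 9.654 CPM with LHX2 and 11.70, 13.42 and 14.22 CPM with control vector, so all LHX2 libraries were lower. It fell by 0.38 ± 0.09 on the log2 scale (SE, edgeR adjusted p = 5.27e-03), in the direction opposite to EGFR. Of its 2806 exonic bases, 186 are shared with EGFR exons. The library kit keeps strand, but whether the counting used it is not stated. If it did not, reads of the shared bases cannot be told apart. Reads from unspliced EGFR RNA over the other EGFR-AS1 exons could then also count for EGFR-AS1. LANCL2, the other tested neighbour of EGFR, differed by -0.04 ± 0.07 (SE, edgeR adjusted p = 0.659).

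Genes whose libraries followed the same pattern were sought by the root mean square distance of centred log2 CPM over the 6 libraries, among 10382 genes of at least 5 CPM. Nearest to ERBB2 were GRN, which encodes progranulin (distance 0.024 log2 units, fold 1.327), PCDHGB5 (0.031, 1.331), PPP3CA, a calcineurin subunit (0.035, 1.316), and PRKAR1A, a regulatory subunit of protein kinase A (0.037, 1.321). Nearest to EGF were FAM13A (0.009), the calcium pump gene ATP2A2 (0.011), the fatty acid oxidation enzyme gene ACADM (0.012) and PRKAA1, an AMPK subunit (0.012), with log2 fold changes between -0.18 and -0.15. These distances describe the 6 libraries only, and PCDHGB5 shares its last exons with other protocadherin genes, so that its count is uncertain.

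Of 9 tested genes listed under shedding and export of the ligands, 2 were higher, 2 lower and 5 did not pass in edgeR. The list holds the inhibitor TIMP3 beside genes that act in release or export, so its counts and its median give no direction for ligand release. The share called was 44.4%, against 32.5% of all genes tested and 44.8% of those of at least 30 CPM. The list's median log2 fold change was -0.01, against 0.01 over all genes tested. RHBDF1, which encodes iRhom1, an escort of the sheddase ADAM17, had 8.386, 6.660 and 8.461 CPM with LHX2 and 6.144, 4.642 and 4.618 CPM with control vector. It rose 1.533-fold (edgeR adjusted p = 2.14e-03), and the groups did not overlap. TIMP3, an inhibitor of ADAM17, had 9.683, 10.30 and 8.850 CPM with LHX2, against 17.33, 17.96 and 17.18 CPM with control vector (1.823-fold lower). The metalloprotease gene ADAM9 rose by 0.26 ± 0.04 and CNIH1, the human homologue of the fly ligand exporter cornichon, fell by 0.23 ± 0.04 on the log2 scale (SE). ADAM17 (-0.06 ± 0.04, edgeR adjusted p = 0.28) and ADAM10 (-0.04 ± 0.04, 0.56), the main sheddases, did not pass, and FRMD8, which stabilises the iRhom complex, was at 0.22 ± 0.08 (0.0523).

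Of 12 tested genes listed under receptor restraint, 4 were higher, 3 lower and 5 did not pass, with a median log2 fold change of 0.07. The list takes LRIG1, LRIG2 and LRIG3 as a family, and whether each member restrains the receptors was not tested. The share called was 58.3%, against 32.5% of all genes tested (16.6% higher and 15.8% lower) and 44.8% of those of at least 30 CPM. ERRFI1, whose product binds and blocks the EGFR kinase, changed most, with 347.0, 337.4 and 332.4 CPM with LHX2 and 187.4, 188.8 and 182.4 CPM with control vector. That was 1.82-fold higher (log2 fold change 0.86 ± 0.04, SE, edgeR adjusted p = 2.93e-10), a larger change than that of any ERBB gene tested. CBLB, a ubiquitin ligase of activated receptors, rose 1.346-fold, with 26.72 to 28.97 CPM with LHX2 and 19.48 to 21.64 CPM with control vector. The receptor-binding membrane proteins LRIG3 and LRIG1 were lower, with log2 fold changes of -0.30 ± 0.04 and -0.26 ± 0.08 (SE). The call for LRIG1 was lost without LHX2 replicate 1 (-0.22) or 2 (-0.25) or control replicate 2 (-0.26) or 3 (-0.23), and the number of lower genes in this list was 1 without control replicate 2. RNF41, a ligase that lowers ERBB3 and whose gene lies 98674 bases from it, differed by -0.06 ± 0.05 (SE, edgeR adjusted p = 0.406).

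Among adaptors and effectors 7 of 22 tested genes were higher, 1 was lower and 14 did not pass, with a median of 0.06. The share called, 36.4%, was near the 32.5% of all genes tested. By direction, 16.6% of all genes tested were called higher and 15.8% lower, so the calls of this list leaned to the higher side. With the uncentred form of the correction for length and GC content, 4 genes of the list were higher and 3 lower. The kinase gene SRC rose by 0.28 ± 0.06, the phospholipase gene PLCG1 by 0.27 ± 0.04, STAT3 by 0.25 ± 0.04 and the docking protein gene GAB2 by 0.23 ± 0.06 on the log2 scale (SE). GAB2 did not pass with the correction for length and GC content (0.13, edgeR adjusted p = 0.0783). The adaptor genes GRB2 (0.06 ± 0.04, 0.258) and SHC1 (-0.12 ± 0.05, 0.0833) were among those that did not pass. The 1 lower gene, NCK1, at -0.18, was named after its value was seen, and it was not called without LHX2 replicate 2, control replicate 1 or control replicate 2, when 0 genes of the list were lower. Of 13 genes for receptor endocytosis and sorting only STAM2, an endosomal sorting gene, was called, or 7.69% of the list (0.16 ± 0.05, SE, edgeR adjusted p = 0.0254), and it was not called without LHX2 replicate 1 (0.16) or 2 (0.15) or control replicate 1 (0.13) or 2 (0.15).

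Transcripts that EGFR-ERK signalling induces in many cells were counted last. Of 15 tested, 5 were higher, 0 lower and 10 did not pass in edgeR, with a median of 0.10 and likewise 0 lower by DESeq2, limma-voom or an unadjusted p under 0.05. The share called was 33.3%, against 32.5% of all genes tested in either direction and 16.6% higher. DUSP6, DUSP4, PHLDA1 and CCND1 had the largest called rises, at 0.86, 0.76, 0.62 and 0.34 on the log2 scale. Those that did not pass lay between -0.24 (FOSL1) and 0.42 (EGR1), with SPRY2 at -0.08, ETV4 at -0.01, ETV5 at -0.04 and DUSP5 at 0.01.

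**Figure D4:**
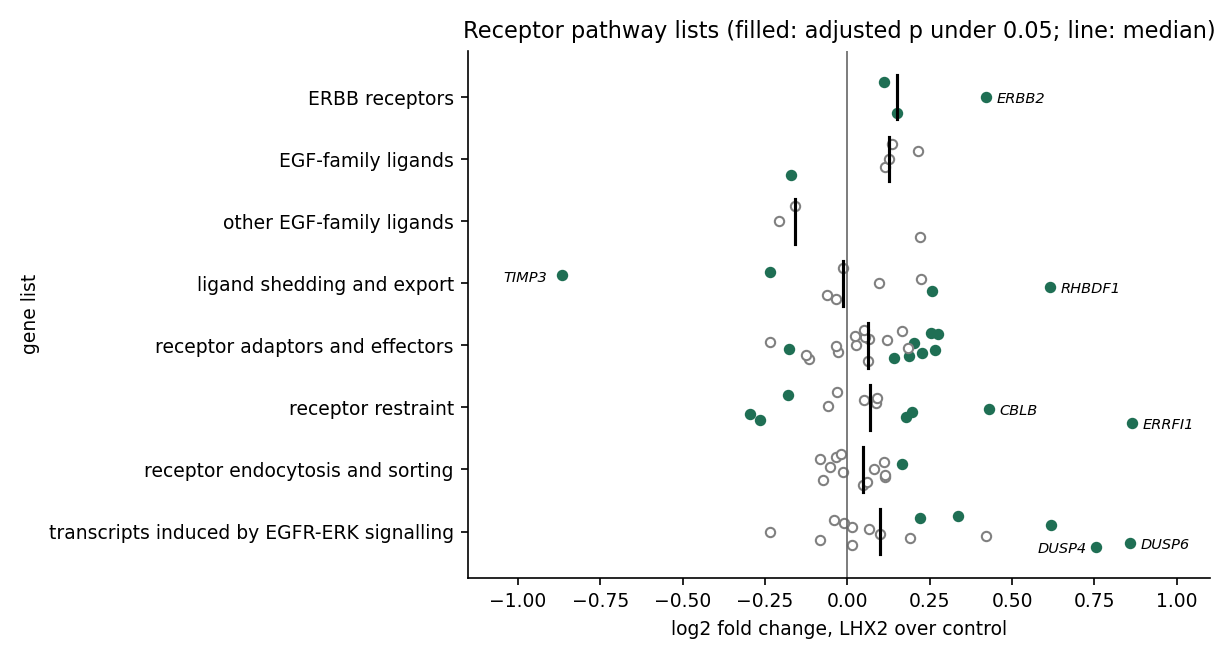
Log2 fold change (LHX2 over control vector) of every tested gene in the receptor, ligand and pathway lists. Filled points passed at an edgeR adjusted p under 0.05, open points did not, and the vertical line is the list's median. The 3 tested receptors lie between 0.11 and 0.42, and the widest changes belong to ERRFI1, DUSP6, DUSP4, PHLDA1, RHBDF1 and TIMP3.

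**Figure D5:**
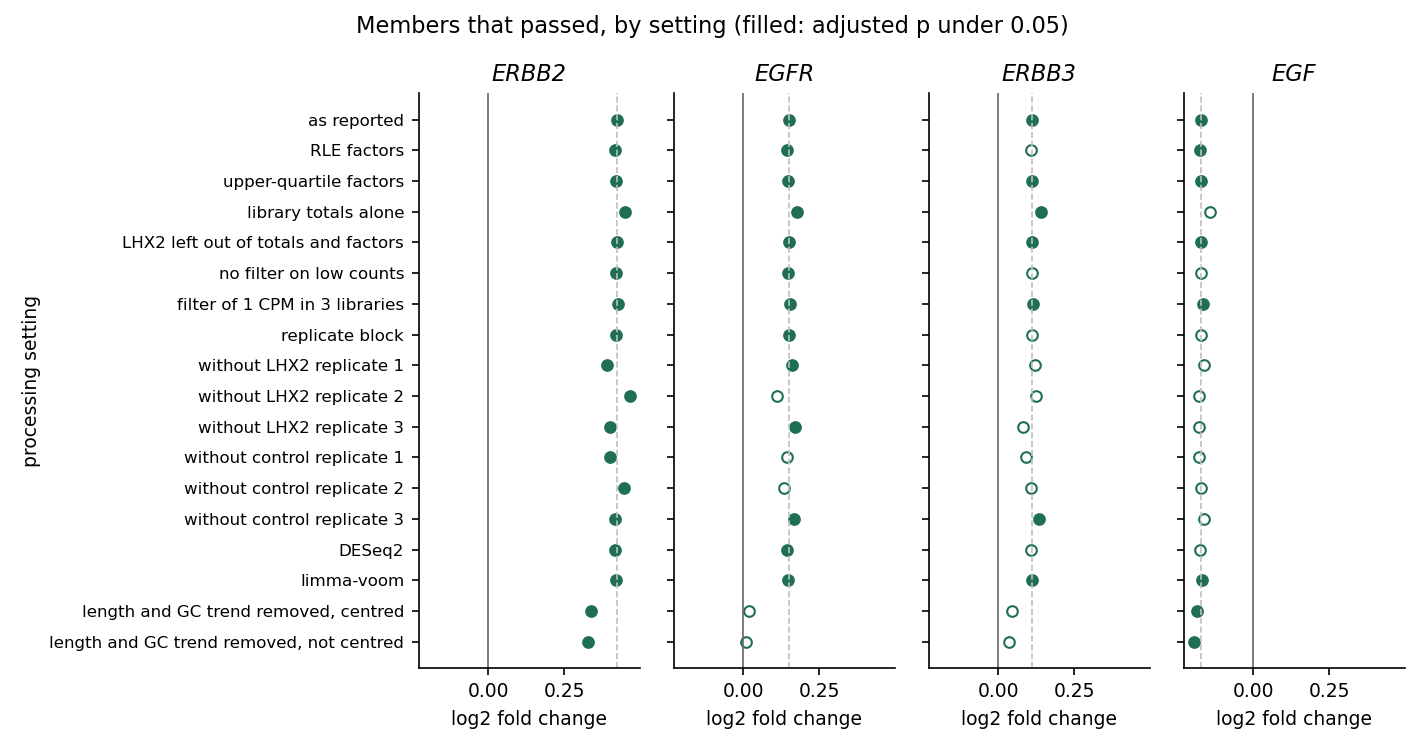
Log2 fold change of the 4 called members under the reported fit and 17 alternatives, with filled points at an adjusted p under 0.05. ERBB2 stays filled throughout, between 0.33 and 0.47, EGFR and ERBB3 move to 0.020 and 0.046 with the centred correction for length and GC content, and EGF stays between -0.20 and -0.14 but is often open.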

How the data were processed

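Polyadenylated RNA was read from stranded libraries, per the labels' protocols. Per the submitters' processing notes, which give no order or role, the tools were featureCounts 2.0.0, TopHat2 2.1.1, SAMtools 1.9, Bowtie2 2.3.5.1, FastQC and bcl2fastq 2.20, and the build was GRCh38/hg38. For the annotation and the strand setting of the counting the sources used here give nothing. The deposited values are raw read counts per gene, and 1 control column with another name form was taken as control replicate 1 by its final number.

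The edgeR function filterByExpr, at a minimum count of 10, a minimum total of 15 and a proportion of 0.7, kept 14533 of 28265 genes, which were scaled with TMM factors (0.985 to 1.02). LHX2 libraries were compared with control libraries by the edgeR quasi-likelihood F-test with group as the only term, adjusted over all genes tested. Intervals are 95%. Exon lengths came from GENCODE release 29, positions and promoter windows from RefSeq GRCh38.p14. Pairs of libraries within a group differed beyond counting noise (chi-square per degree of freedom 2.33 to 8.25), so none was treated as a library deposited more than once. This does not show that they came from separate cultures. The reads carried no molecular identifiers and may repeat molecules, so counting intervals and floors cover counting error only.

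The members and lists were chosen with earlier results of these data known. Named genes were the members, LHX2, up to 4 called genes per list by size of change, tested genes within 200 kb of called members and nearest patterns. SOX9 and the other marker genes, ADAM17, ADAM10, FRMD8, GRB2, SHC1, NCK1, RNF41, SPRY2, ETV4, ETV5, DUSP5, FOSL1, EGR1, the neuregulins and EPGN were named after their values were seen. Alternatives were limma-voom, DESeq2, other factors and filters, leaving out each library in turn, a block for the replicate number and removal of a length and GC trend (loess, span 0.3), whose form without centring was added after the data were seen. R 4.3.3, edgeR 4.0.16, DESeq2 1.42.0, limma 3.58.1, Python 3.11.15, pandas 2.3.3, numpy 2.4.6, scipy 1.17.1 and matplotlib 3.10.9 were used.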

Additional observations from a re-analysis of the deposited data

How the results depend on the processing

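ERBB2 kept its direction and its call in all 17 alternatives. EGFR moved to 0.020 and 0.011 with the length and GC trend removed, centred and not centred, and to 0.11 to 0.17 with 1 library left out. ERBB3 was no longer called with RLE factors (0.11), no filter on low counts (0.11), the replicate block (0.11), DESeq2 (0.11) or the length and GC trend removed (0.046 centred, 0.037 not), and ran from 0.081 to 0.13 with 1 library left out. EGF was no longer called with library totals alone (-0.14), no filter (-0.17), the replicate block (-0.17) or DESeq2 (-0.17), nor with any library left out (-0.18 to -0.16). Members called higher were thus 1 with either trend removal and 1 to 3 with 1 library left out, and members called lower were 0 with library totals alone, no filter, the block, DESeq2 or any library left out. EREG ran from -0.060 to 0.26, STARD3 from -0.039 to 0.098, ORMDL3 from -0.165 to 0.0080 and the log2 difference in the ERBB3 to EGFR ratio from -0.088 to 0.014 with 1 library left out, and STARD3 was at -0.026 and -0.036 with the trend removed, centred and not. Of the lists, adaptors had 4 higher with uncentred trend removal and 0 lower with library totals or the block, 3 lower with either trend removal and 0 to 1 with 1 library left out. Restraint genes had 2 higher with either trend removal and 1 to 3 lower with 1 library left out. Endocytosis genes had 2 higher with library totals or either trend removal, 0 with the block and 0 to 1 with 1 library left out, and 1 lower with either trend removal. The cause of these moves was not tested.

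Same-numbered LHX2 and control libraries did not deviate together (correlations -0.0555, -0.0735 and -0.195). Differently numbered ones gave -0.0717 to 0.133. With 3 libraries per group these values do not settle whether same-numbered libraries were handled together. The replicate block gave 3768 calls over all genes, against 4716 without it. Under the block CDK2 (0.13) and ZC3H10 (0.29), near ERBB3, were not called. Depth limits the low ligands, whose 95% intervals reach 1.43-fold to 1.57-fold, and the low counts of ERBB4. The part of depth in the 0 of TGFA was not tested.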

Other observations

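Of 21 genes tested within 200 kb of ERBB3, 6 were higher and 4 lower in the edgeR test. That is 47.6%, against 32.5% of all genes tested and 44.8% of those of at least 30 CPM. SMARCC2, a chromatin remodelling subunit, rose by 0.25 on the log2 scale, ANKRD52 by 0.26, ZC3H10 by 0.29, the endosomal GTPase gene RAB5B by 0.20, the myosin light chain gene MYL6 by 0.18 and CDK2 by 0.13. The lower genes were PA2G4 (-0.32), which encodes an ERBB3-binding protein and begins 1054 bases past the end of ERBB3, the zinc transporter gene SLC39A5 (-0.38), and the ribosomal protein genes RPL41 (-0.34) and RPS26 (-0.24), whose counts are uncertain because near-identical pseudogene copies exist. CDK2 was no longer called without any 1 library but LHX2 replicate 2 (0.09 to 0.16 over the 6 fits), ZC3H10 without LHX2 replicate 1 (0.25) or 2 (0.29) or control replicate 1 (0.19), MYL6 without LHX2 replicate 1 (0.11), control replicate 1 (0.18) or control replicate 2 (0.18), and RPL41 (-0.31) and RPS26 (-0.24) without control replicate 2. With DESeq2, CDK2 (0.13) and RPL41 (-0.35) were not called. With the centred correction for length and GC content, ANKRD52 was at 0.10, ZC3H10 at 0.20 and RPS26 at -0.17, none of them called. Within 200 kb of EGF, CFI, which encodes complement factor I, rose by 0.14, but was not called without control replicate 2 (0.14), GAR1, a small nucleolar ribonucleoprotein gene, fell by 0.22, and 2 other tested genes did not pass.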
